A study of Homo sapiens with 6 samples.

Results

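The unfolded protein response and the integrated stress response were examined through 32 genes in xenograft tumours with and without knockdown of SHP2. The 32 genes are a fixed list, and each was read from the feature of the annotated array table whose gene symbol equals its name. All 32 were found among 24494 genes with a symbol of their own. Where a gene had several features, the one with the highest mean over the 6 arrays was taken, which concerned DDIT3 alone. Of the 32 genes, 27 passed a filter on low values (log2 above 4 in at least 3 of the 6 arrays) that 12541 genes passed in all. The 5 under the filter were PDIA3, ATF3, DDIT3, CHAC1 and SLC7A11, which are given as values without a test. Against the 95th percentile of the array's negative control features, 21 of the 32 lay above it in at least 3 arrays and 9 in 0 arrays.

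The endoplasmic reticulum (ER) folds secreted and membrane proteins, and when unfolded protein builds up there 3 sensors in its membrane respond. ATF6 and the kinase and nuclease IRE1 (gene ERN1), the latter by splicing the mRNA of the transcription factor XBP1, raise ER chaperones and the machinery of ER-associated degradation. The kinase PERK (gene EIF2AK3) phosphorylates the translation factor eIF2, which lowers protein synthesis in general while translation of the transcription factor ATF4 goes up. Other eIF2 kinases sense amino acid shortage, viral RNA and haem shortage and reach the same ATF4 targets, and this shared arm is called the integrated stress response. ATF4 activity is set largely at translation, and array values of mRNA do not measure it.

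Arrays were used to measure gene expression in 6 tumours of 1205Lu grown under the skin. 1205Lu is an established human melanoma line. The line was grown for approximately 6 weeks in NSG mice, which lack mature lymphocytes and natural killer cells but keep myeloid cells, vessels and stroma of their own. The 3 control tumours carried a non-target shRNA and the 3 knockdown tumours an shRNA against Shp2. How many hairpins were used, their sequence and whether each tumour had its own mouse is not stated in the labels, so the tests measure only the spread between these samples. Values are GCRMA values, read as log2, and differences are knockdown minus control. In bulk tissue, fewer cells of a type and less RNA per cell cannot be told apart.

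PTPN11, which encodes SHP2, was 8.76 ± 0.29 (SD, n = 3) in control and 6.71 ± 0.32 (SD, n = 3) in knockdown tumours (limma adjusted p = 0.034), and was the only gene that passed. Its groups did not overlap, but leaving out any 1 array other than control 1 gave an adjusted p of 0.096 to 0.267. The melanoma line markers AXL, EGFR, CSPG4, S100B, VIM and SOX10 lay above the negative control percentile in at least 3 arrays. NGFR and the pigment cell markers MITF, PMEL, MLANA, TYR and DCT lay below it in all 6. Of 10 leukocyte markers, CD68 alone exceeded it, and PTPRC and CD14 did so in 0 arrays. Of 7 fibroblast markers, COL1A1 and PDGFRB exceeded it in 6 arrays and the other 5 in 0. None of 6 endothelial, 5 erythroid or 5 keratinocyte markers did so in at least 3 arrays. The markers were read under human gene symbols, and how far the features detect mouse transcripts was not tested. They are therefore no measure of the leukocytes of the mouse host. One control array stood apart. In control 1 the negative control percentile was 5.90 against 5.09 to 5.43 in the other arrays, the mean of positive control features minus that of negative ones was 3.45 against 3.76 to 4.01, and 45.9% of the genes compared had their lowest value there. For many of the genes named below, the value without control 1 is given as well. Where it is not given, the difference is not thereby stable.

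None of the 32 genes passed the test. In limma with Benjamini-Hochberg adjustment over 12541 genes, 0 of the 27 tested rose and 0 fell at 0.05, each with an adjusted p of 1.00, against 0.00797% of all genes compared. At an unadjusted p under 0.05 the count was also 0 of 27, against 2.54% of all genes. Within the precision of 3 arrays per group the differences were bounded. The 95% interval of the difference (limma, not adjusted for the number of genes) lay inside a change of 2-fold in either direction for 21 of the 21 genes above the negative control percentile in at least 3 arrays, and inside 1.5-fold for 10 of them. For DNAJB9, CRELD2, ERN1 and TRIB3, which were tested but exceeded that percentile in 0 arrays, the interval bounds the array value and not the transcript. The lowest bound was 0.594 times the control level for VLDLR and the highest 1.86 times for PSAT1. Of the 32 differences, 24 were positive and 8 negative, where 62.0% of all genes compared were positive. Their median was 0.080 against 0.053 over all genes compared.

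**Figure D1:**
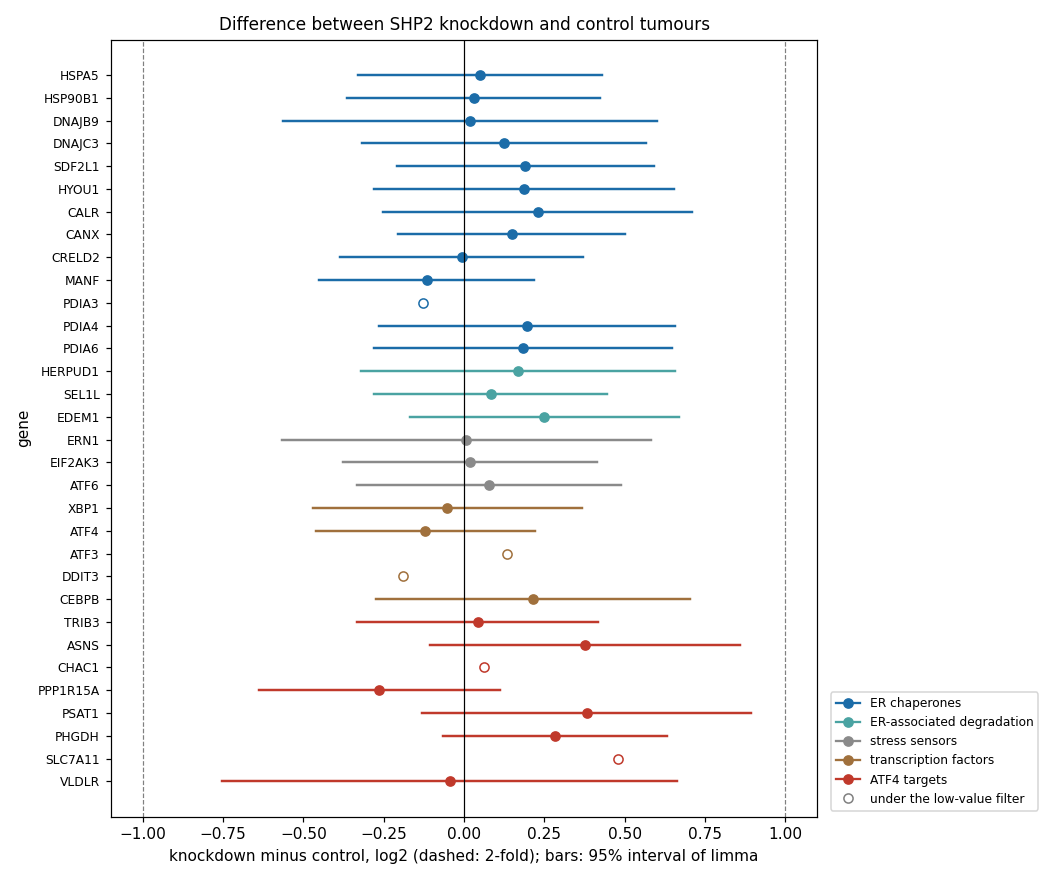
Difference between knockdown and control tumours on the log2 scale for each of the 32 genes, coloured by role. Filled points carry the 95% interval of the limma fit, open points mark the 5 genes under the low-value filter, and dashed lines mark a 2-fold change. All 27 intervals include 0 and end inside the dashed lines.

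The ER chaperones were 13 genes, 12 of them above the filter. HSPA5 encodes BiP, the ER member of the HSP70 family, which binds unfolded chains and also keeps the 3 sensors inactive. Its log2 values were 10.03, 10.28 and 10.46 in controls 1 to 3 and 10.18, 10.41 and 10.34 in knockdowns 1 to 3. The groups overlapped and the means differed by 0.05 (SE 0.17, 95% interval -0.33 to 0.43), so an effect between 0.796 and 1.35 times the control level fits these arrays. Without control 1 the difference was -0.06. HSP90B1, which encodes GRP94, the ER member of the HSP90 family, was 10.21, 10.44 and 10.68 in control and 10.30, 10.58 and 10.54 in knockdown tumours (difference 0.03, SE 0.18, and -0.09 without control 1). For both genes control 1 was the lowest array and control 3 the highest.

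The lectin chaperones CALR (calreticulin) and CANX (calnexin) hold newly made glycoproteins in the folding cycle. CALR had the largest positive difference of the chaperones, with 10.68, 11.23 and 11.43 in control and 11.16, 11.55 and 11.31 in knockdown tumours (difference 0.23, SE 0.22, interval -0.25 to 0.71). The knockdown values lay on either side of controls 2 and 3, and control 1 lay below all other arrays. Without control 1 the difference of CALR was 0.01. CANX differed by 0.15 (SE 0.16), and by 0.06 without control 1.

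The protein disulphide isomerases PDIA4 and PDIA6 form and rearrange disulphide bonds. They differed by 0.19 (SE 0.21) and 0.18 (SE 0.21), and by 0.04 and 0.01 without control 1. PDIA3, the isomerase that works with the lectin chaperones, had values of 1.78 to 2.35, above the negative control percentile in 0 arrays. The feature of PDIA3P, a pseudogene that is a near copy of PDIA3 and is named here after its values were seen, was 5.41, 5.54 and 5.60 in control and 5.77, 6.09 and 5.18 in knockdown tumours. The level of PDIA3 itself is therefore uncertain on this array.

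The co-chaperones and the small ER proteins also stayed short of the threshold. HYOU1, a nucleotide exchange factor for BiP, differed by 0.19 (SE 0.21), SDF2L1, an ER luminal partner of BiP co-chaperones, by 0.19 (SE 0.18), and DNAJC3, a J-domain protein that also restrains PERK, by 0.13 (SE 0.20). Without control 1 these differences were 0.03, 0.05 and -0.04. The J-domain protein DNAJB9 was 3.84, 4.76 and 4.80 in control and 4.65, 4.59 and 4.22 in knockdown tumours, above that percentile in 0 arrays. Its difference of 0.02 became -0.29 without control 1. The secreted ER stress proteins CRELD2 and MANF differed by -0.01 (SE 0.17) and -0.12 (SE 0.15), and by -0.13 and -0.16 without control 1. CRELD2 exceeded the negative control percentile in 0 arrays. Over the 13 chaperones the median difference was 0.13, with 10 positive and 3 negative, and without control 1 it was 0.01, with 7 positive. With both arrays numbered 1 left out the median was 0.07. Over the 12 chaperones without PDIA3 it was 0.14, with 10 positive, and -0.01 without control 1, with 6 positive. Over all genes compared the median was 0.05 with all arrays and -0.01 without control 1.

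Several chaperone genes share a promoter sequence, the ER stress element, through which ATF6 acts together with the factor NF-Y. It is made of CCAAT and CCACG separated by 9 free bases. In the 250 bases before each gene start in the RefSeq promoter table (build GRCh38.p14, 30 of the 32 genes matched by symbol, both strands searched) it was found in 6 of 12 chaperone genes, in XBP1, and in 25 of 27305 genes in all (0.0916%). The element was first described in human chaperone promoters, so its presence in them is background and not a result of these arrays. The matches are shown because they are the sequence that the chaperone arm has in common. Capitals mark the fixed bases, each is written 5′ to 3′ on the strand that holds CCAAT first, and HSP90B1 has a pair of them.
HSPA5, chr9:125241391-125241409: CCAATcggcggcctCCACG
HSP90B1, chr12:103930216-103930234: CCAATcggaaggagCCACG
HSP90B1, chr12:103930321-103930339: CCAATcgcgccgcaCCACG
CALR, chr19:12938384-12938402: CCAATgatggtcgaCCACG
CANX, chr5:179698778-179698796: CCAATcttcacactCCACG
CRELD2, chr22:49918554-49918572: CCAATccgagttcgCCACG
PDIA6, chr2:10812853-10812871: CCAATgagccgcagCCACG
XBP1, chr22:28800603-28800621: CCAATcgcggagggCCACG

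The whole window of HSPA5, the best known target, is printed for context, from chr9:125241344-125241593 on the minus strand, and ends at the base before the gene start. The match begins 66 bases before that start.
HSPA5: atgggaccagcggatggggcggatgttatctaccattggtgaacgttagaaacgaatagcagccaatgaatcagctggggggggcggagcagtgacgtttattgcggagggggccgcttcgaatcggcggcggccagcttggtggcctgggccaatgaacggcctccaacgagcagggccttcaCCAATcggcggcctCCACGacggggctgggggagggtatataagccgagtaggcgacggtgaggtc

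Of the 25 genes with an ER stress element match, 12 were compared on the arrays. Of these 12, 7 are genes of the list already described, so the count largely repeats their values. Positive differences were found for 9 of the 12 (75%), beside 62.0% of all genes compared, with a median of 0.11. Without control 1, 5 of the 12 were positive and the median was -0.01. Of the 5 genes outside the list, 4 were positive (median 0.20), and 2 without control 1. A second form, ER stress element II, is ATTGG and CCACG with 1 free base between them. It was found in SDF2L1, at 2 places in HYOU1 and in HERPUD1, and in 18 of 27305 genes in all (0.0659%). The core of the UPR element, TGACGTG, to which XBP1 binds, was found in HYOU1 alone among the 30 genes, overlapping an ER stress element II, and in 2.05% of all genes. A match is a description of these letters and not a measured binding site.

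The genes of ER-associated degradation, which return misfolded proteins to the cytosol for destruction, had positive differences for 3 of 3. EDEM1, which directs misfolded glycoproteins to this route, was 6.87, 7.22 and 7.33 in control and 7.29, 7.65 and 7.24 in knockdown tumours (difference 0.25, SE 0.19). HERPUD1, a membrane protein of the degradation complex, was 5.77, 6.32 and 6.56 against 6.25, 6.60 and 6.31 (difference 0.17, SE 0.22). For both, knockdown 2 was the highest array and control 1 the lowest, and without control 1 the differences were 0.11 and -0.06. SEL1L, the adaptor of the ubiquitin ligase HRD1, differed by 0.08 (SE 0.16).

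HERPUD1 is the one gene of the 30 whose window holds matches of both arms. Its ER stress element II begins 117 bases before the gene start. On the opposite strand, 176 bases before the start, lies a match of the C/EBP-ATF response element, the composite site through which ATF4 acts, searched for as TGATGNAA. The window is chr16:56931892-56932141 on the plus strand, with the fixed bases in capitals and the second element first, in reverse complement.
HERPUD1: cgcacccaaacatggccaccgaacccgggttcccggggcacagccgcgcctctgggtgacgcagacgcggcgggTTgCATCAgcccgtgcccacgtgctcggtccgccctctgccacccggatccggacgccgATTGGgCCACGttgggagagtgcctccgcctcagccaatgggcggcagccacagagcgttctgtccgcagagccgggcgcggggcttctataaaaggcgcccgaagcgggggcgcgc

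None of the 3 sensors passed the test. ATF6 was 6.93, 7.38 and 7.50 in control and 7.25, 7.42 and 7.38 in knockdown tumours (difference 0.08, SE 0.18). EIF2AK3 (PERK) was 5.11, 5.48 and 5.66 against 5.42, 5.45 and 5.43, with a knockdown SD of 0.01 beside a control SD of 0.28. ERN1 (IRE1) differed by 0.01 (SE 0.26) and exceeded the negative control percentile in 0 arrays. All 3 had control 1 as their lowest array, and all 3 differences were negative without it (-0.09, -0.13 and -0.22).

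Among the transcription factors, ATF4 itself was 6.95, 6.87 and 6.79 in control and 6.62, 6.82 and 6.81 in knockdown tumours (difference -0.12, SE 0.15, interval -0.46 to 0.22). Its groups overlapped, with control 1 the highest array and knockdown 1 the lowest, whereas control 1 was the lowest array for 11 of 13 chaperones. XBP1, whose value here is not resolved by splice form, differed by -0.05 (SE 0.19), and by -0.18 without control 1. CEBPB, which binds DNA together with ATF4, differed by 0.22 (SE 0.22), a difference that vanished without control 1. DDIT3, the death-promoting factor CHOP that prolonged PERK signalling induces, was 2.41 to 2.97 over the 6 arrays. ATF3, another stress-induced factor, was 3.05 to 3.59. Neither reached the negative control percentile in any array, so a level of either was not detectable.

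Of the 8 ATF4 targets, 6 had positive differences and 2 negative ones, with a median of 0.17. Without control 1 the median was 0.16 and again 6 were positive. Over all genes compared 62.0% were positive, and the median was 0.05, or -0.01 without control 1. Of the 8 targets, 3 exceeded the negative control percentile in at least 3 arrays and 3 in 0 arrays. CHAC1 and SLC7A11 lay under the low-value filter as well, so these medians rest largely on low values. ASNS, SLC7A11, PHGDH and PSAT1, which supply amino acids, gave the 4 highest differences of the 32 genes with all arrays. Without control 1 VLDLR, DDIT3, DNAJB9 and PPP1R15A had differences of -0.41, -0.33, -0.29 and -0.26, larger in size than those of PHGDH and PSAT1.

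ASNS, asparagine synthetase, was 5.81, 5.80 and 6.01 in control and 6.65, 5.81 and 6.29 in knockdown tumours (difference 0.38, SE 0.22, interval -0.11 to 0.86). Knockdowns 1 and 3 lay above all controls, while knockdown 2 lay among them. The difference was 0.34 without control 1, 0.18 without knockdown 1 and 0.60 without knockdown 2. The ASNS window carries a C/EBP-ATF response element 68 bases before the upstream of its 2 listed starts, the site known to answer amino acid shortage. It is shown (chr7:97872409-97872658, minus strand, fixed bases in capitals) because it is a textbook site of ATF4 action.
ASNS: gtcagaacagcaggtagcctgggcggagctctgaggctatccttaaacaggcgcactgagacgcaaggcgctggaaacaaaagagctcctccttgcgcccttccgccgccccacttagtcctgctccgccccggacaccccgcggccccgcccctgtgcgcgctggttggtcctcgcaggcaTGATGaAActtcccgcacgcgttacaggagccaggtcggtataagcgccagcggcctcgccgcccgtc

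PHGDH and PSAT1 encode the first enzymes of serine synthesis, phosphoglycerate dehydrogenase and phosphoserine aminotransferase. PHGDH was 4.69, 4.78 and 4.88 in control and 4.96, 5.22 and 5.02 in knockdown tumours (difference 0.28, SE 0.16, interval -0.07 to 0.63). Its groups did not overlap, yet it exceeded the negative control percentile in 1 array alone. PSAT1 was 5.44, 6.02 and 6.29 against 6.27, 6.10 and 6.52 (difference 0.38, SE 0.23), and its difference was 0.14 without control 1, the lowest of its values. PSPH, the phosphatase that completes the pathway and is named here for that place, differed by 0.05 (SE 0.20).

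SLC7A11, the cystine and glutamate exchanger that feeds glutathione synthesis, was 2.68, 2.74 and 2.75 in control and 3.31, 3.52 and 2.77 in knockdown tumours. Its groups did not overlap and its difference of 0.48 was the highest of the list, but every value lay under the low-value filter and below the negative control percentile. Knockdown 3, at 2.77, lay beside the highest control, at 2.75. Of the 27 genes tested, PHGDH was the 1 whose knockdown values all lay above the control values, where 3.86% of all genes compared did so. None had knockdown values all below the control values, where 2.81% of all genes did.

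The other ATF4 targets went different ways. PPP1R15A, which encodes GADD34, the subunit that leads a phosphatase to eIF2 and so ends the response, was 5.35, 5.24 and 5.45 in control and 4.84, 5.15 and 5.26 in knockdown tumours. Its difference of -0.26 (SE 0.17, interval -0.64 to 0.11) was the most negative of the list and was -0.26 without control 1 and -0.14 without knockdown 1. PPP1R15A exceeded the negative control percentile in 2 arrays alone. VLDLR, a lipoprotein receptor raised through PERK and ATF4, was 4.55, 5.49 and 5.78 against 5.14, 4.86 and 5.68, the widest control spread of the genes tested (SD 0.64). Its difference of -0.05 was -0.41 without control 1.

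TRIB3, a pseudokinase that dampens ATF4 and CHOP, differed by 0.04 (SE 0.17), and by 0.17 without control 1. CHAC1, an enzyme that degrades glutathione, was 3.33 to 3.59 over the 6 arrays. Both lay below the negative control percentile throughout. The C/EBP-ATF response element was found in the windows of ASNS, CHAC1, ATF3 and HERPUD1, 4 of the 30 genes, and in 3.89% of all genes. PHGDH and PSAT1 held no match of these letters. Of all 1061 genes with a match, 189 were compared, and 57.7% of them had positive differences, with a median of 0.04, beside 62.0% of all genes compared. Without control 1, 84 of the 189 were positive and the median was -0.02.

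**Figure D2:**
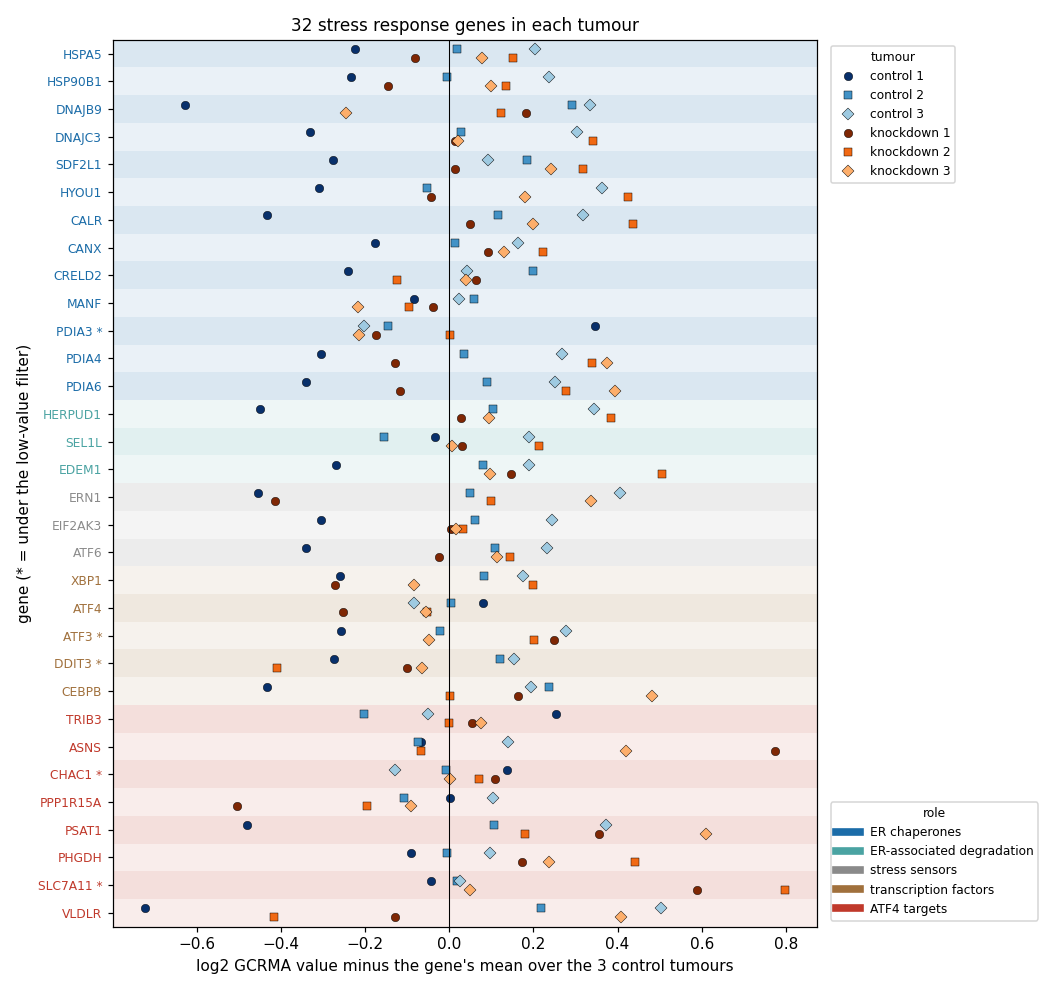
Values of the 32 genes in each of the 6 tumours, as log2 distance from the gene's mean over the 3 control tumours. Blue points are control and brown to orange points knockdown tumours, the row colour gives the role and an asterisk marks genes under the low-value filter. The dark blue points of control 1 lie left of controls 2 and 3 for most chaperones and sensors but not for TRIB3, CHAC1, PPP1R15A or ATF4.

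Control 1 lay below the mean of controls 2 and 3 for 12 of 13 chaperones (median gap -0.41), for 3 of 3 degradation genes (-0.40) and for 3 of 3 sensors (-0.51). It did so for 5 of 8 ATF4 targets (median gap -0.08). Over all genes compared it lay below for 71.0% (median gap -0.21), and among the 2012 genes with a mean of at least 7, a cut set after the data were seen, for 88.3% (-0.34). Knockdown 1 lay low within its own group too. It was below the mean of knockdowns 2 and 3 for 10 of 13 chaperones (median gap -0.20). Over all genes compared it was below for 8888 of 12541 (-0.14). The lowest of the 6 values fell in control 1 for 22 of the 32 genes, against 65.1% of the genes with a mean of at least 7. A low control 1 was thus common among bright genes in general, but it was not confined to them. The chaperones with a mean under 7 were DNAJB9, SDF2L1, CRELD2, MANF and PDIA3. Their gaps were -0.94, -0.41, -0.36, -0.12 and 0.52. Many of the 32 genes have a mean under 7, so the 65.1% is not a like share for the whole list. How far control 1 sets the chaperone differences was not tested beyond the values without it.

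**Figure D3:**
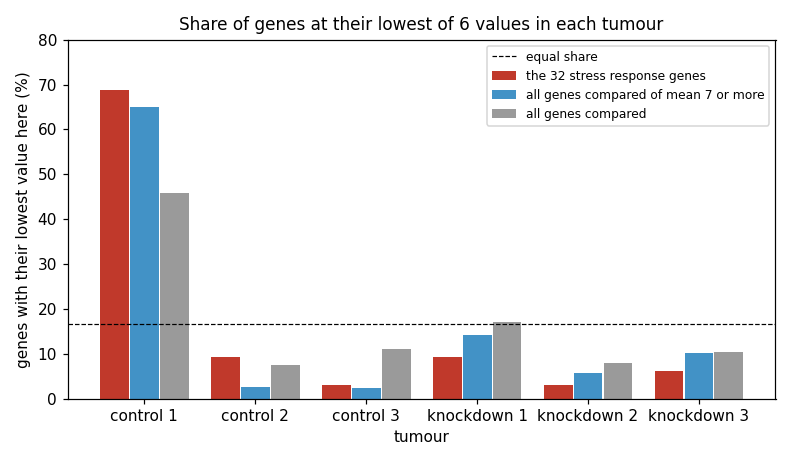
Share of genes whose lowest of 6 values fell in each tumour, for the 32 stress response genes, for all genes compared with a mean of at least 7 and for all genes compared. The dashed line is an equal share. Control 1 holds the lowest value of 22 of the 32 genes and of 65.1% and 45.9% of the other sets.

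Leaving control 1 out changed the sign of 10 of the 32 differences and left 16 positive. The median over the list was then 0.00, and over all genes compared -0.01. Without control 1 the differences of ASNS, PHGDH, PSAT1 and SLC7A11 were 0.34, 0.24, 0.14 and 0.46. With both arrays numbered 1 left out, 20 of the 32 differences were positive and 6 changed sign. The median over all genes compared was then 0.03. Heat shock genes of the cytosol, which mark handling and heat stress, had 5 of 7 positive differences with all arrays (median 0.11) and 3 of 7 without control 1 (median -0.05). Their summed level on the log2 scale was 11.38, 11.79 and 11.89 in control and 11.55, 11.93 and 11.82 in knockdown tumours, with control 1 again the lowest. Immediate early genes had 5 of 7 positive differences (median 0.14) and 4 of 7 without it. The part of RNA handling in the differences above was not tested.

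**Figure D4:**
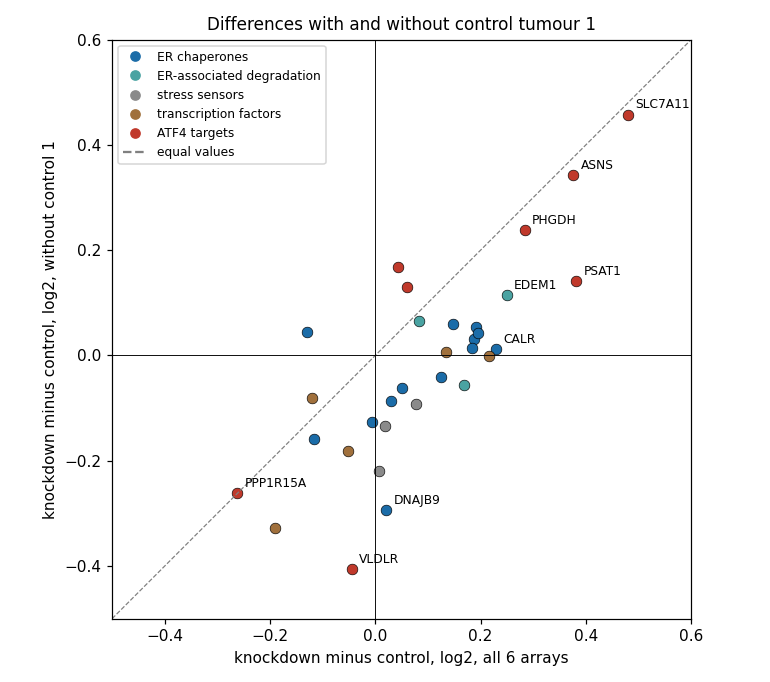
Difference between knockdown and control tumours with all 6 arrays (horizontal axis) and without control 1 (vertical axis), in log2 units, 1 point per gene. Points on the dashed line did not move. Most chaperones drop from positive values to around 0, DNAJB9 to -0.29, while ASNS, PHGDH and SLC7A11 stay near the line.

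The wider pathway was followed through 6 further lists, in which 0 genes rose and 0 fell at the adjusted threshold. At an unadjusted p under 0.05 there was 1 of 29 tested among the other ATF4 and amino acid response genes, 2 of 9 among the death genes and 0 in the other lists, beside 2.54% of all genes compared. Other ER folding and translocation genes gave 19 positive differences of 31 (median 0.03, and -0.09 without control 1). HSPA13, an ER-associated HSP70 relative, differed by 0.32 (SE 0.25), the disulphide isomerase relative TXNDC11 by 0.24 (SE 0.19), and SRPRB, a subunit of the receptor that docks ribosomes at the ER, by 0.21 (SE 0.19). Without control 1 these differences were 0.03, 0.10 and 0.03. SPCS3, a subunit of the signal peptidase, was 7.30, 7.73 and 7.84 in control and 7.05, 7.32 and 7.47 in knockdown tumours (difference -0.34, SE 0.19, and -0.50 without control 1). Other ER-associated degradation genes gave 13 positive differences of 16 (median 0.17, and 0.03 without control 1). The ubiquitin-conjugating enzyme UBE2J1 differed by 0.30 (SE 0.20), the ER lectins ERLEC1 and OS9 by 0.24 (SE 0.21) and 0.21 (SE 0.19), and DERL3, a channel component that exceeded the negative control percentile in 0 arrays, by 0.30 (SE 0.18). Without control 1 UBE2J1, ERLEC1 and OS9 differed by 0.16, 0.04 and 0.06, and DERL3 by 0.31.

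Of 33 other ATF4 and amino acid response genes, 29 passed the low-value filter. Of the 33 differences, 19 were positive and 14 negative, beside 62.0% positive over all genes compared and 13672 of all 24494 genes. Their median was 0.03 (-0.03 without control 1). SQSTM1, the autophagy receptor p62, was 5.80, 6.00 and 6.13 in control and 6.14, 6.39 and 6.61 in knockdown tumours (difference 0.40, SE 0.18), with no overlap between the groups. KLHL24, a ubiquitin ligase adaptor, was 5.13, 5.23 and 5.42 against 4.93, 4.84 and 5.06 (difference -0.32, SE 0.16), also without overlap. KLHL24 exceeded the negative control percentile in 1 array alone. The mTORC1 inhibitor DDIT4 and the angiogenic factor VEGFA, which hypoxia raises too, differed by -0.60 (SE 0.29) and -0.44 (SE 0.23). Without control 1 DDIT4 and VEGFA differed by -0.80 and -0.59. None of these 4 passed the adjusted test.

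Enzymes that charge tRNAs, many of them ATF4 targets, gave 9 positive differences of 12 (median 0.07), and 7 without control 1 (median 0.02). The tryptophanyl enzyme WARS, which interferon also raises, differed by 0.37 (SE 0.19) and exceeded the negative control percentile in 1 array alone. The tyrosyl enzyme YARS differed by 0.35 (SE 0.18), the methionyl enzyme MARS by 0.22 (SE 0.16) and the leucyl enzyme LARS by -0.15 (SE 0.16). Without control 1 YARS differed by 0.21. The eIF2 kinases, eIF2 subunits and their exchange factor gave 10 positive differences of 14 (median 0.05, and -0.04 without control 1). EIF2AK2, the kinase PKR that senses viral RNA, was 7.16, 7.66 and 7.97 in control and 7.84, 7.81 and 7.84 in knockdown tumours (difference 0.23, SE 0.21, and 0.02 without control 1). The exchange factor subunits EIF2B4 and EIF2B5 differed by 0.30 (SE 0.18, in 0 arrays above the negative control percentile) and 0.13 (SE 0.16), and the phosphatase subunit PPP1CA by 0.12 (SE 0.16). Without control 1 the differences of EIF2B4 and EIF2B5 were 0.16 and 0.04.

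Genes that link ER stress to cell death gave 6 positive differences of 11 (median 0.04). The kinase ASK1 (gene MAP3K5), which IRE1 engages through TRAF2, was 7.24, 7.30 and 7.63 in control and 6.69, 6.57 and 6.73 in knockdown tumours. Its groups did not overlap, but the difference of -0.73 (SE 0.17) had a limma adjusted p of 1.00. The death receptor TNFRSF10B, a CHOP target, differed by 0.34 (SE 0.20), the thioredoxin inhibitor TXNIP by -0.57 (SE 0.22) and the BCL2 family effector BAK1 by -0.37 (SE 0.25). Without control 1 TNFRSF10B differed by 0.18 and TXNIP by -0.81. TXNIP and BAK1 exceeded the negative control percentile in 0 arrays.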

How the data were processed

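RNA from 3 control and 3 knockdown tumours was labelled with biotin by the Affymetrix protocol, per the labels' protocols. GCRMA is the one tool that the submitters' processing notes name for the authors' values. The deposited values are read as log2 values (0.0493 to 13.3), since the base is not stated, and no label states the array design. Scanner files and detection flags were not used here. Features with several symbols or none stayed out.

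Groups were compared with limma 3.58.1 in R 4.3.3 (lmFit and eBayes, no covariate, all 6 arrays, two-sided, Benjamini-Hochberg adjustment over all 12541 genes kept, threshold 0.05), with 4 residual and 5.83 prior degrees of freedom. The number of arrays limits the precision (median standard error 0.19). The fit was tested on simulated data. The 32 genes, the further lists and the rule for naming were chosen with earlier results of these data known. The rule takes all 32 genes, up to 4 genes of smallest p from each further list, PTPN11 and the 2 brightest of each marker list. Of these brightest markers, only S100B, CD68, COL1A1 and PDGFRB are named. PDIA3P, PSPH and the other cell type markers named fall outside it. Lists are described by counts and medians, with no list test. TXNDC5 and PECAM1 had no feature of their own, and PMEL was read under that symbol and not under its other name SILV. Promoter sequences are those of RefSeq. One marker of the melanoma line list is not reported here.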

Additional observations from a re-analysis of the deposited data

How the results depend on the processing

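The count of 0 stress response genes past the threshold held in 21 alternatives: 3 low-value filters, another feature per gene, the series value table (the same values, largest difference 0), 2 normalizations, 4 variance models, a block for the sample number, the control feature contrast as a covariate, both arrays numbered 1 left out, each array left out and a threshold of 0.1. Array quality weights stopped before full convergence. With 1 array left out, the list gave 16 to 26 positive differences, the chaperone median ran from 0.01 (without control 1) to 0.23 (without control 3), and the ATF4 target median from 0.11 (without knockdown 1) to 0.27 (without control 3). The median over all genes compared then ran from -0.01 (without control 1) to 0.11 (without control 3). With the covariate, 13 differences were positive, 13 changed sign, and the chaperone median was -0.03 beside 0.15 for the ATF4 targets. The median over all genes compared was also -0.03 with the covariate. The count over all genes, 1 in the main setting, was 0 with no filter, quantile normalization, no variance moderation or the covariate, 2 without both arrays numbered 1, and 0 to 1 with 1 array left out. PTPN11 differed by -2.05, -2.09, -2.05 and -2.13 in the first 4 of these settings (adjusted p 0.079, 0.077, 1.00 and 0.059) and by -2.19 to -1.86 with 1 array left out. With the sample number as a replicate block the count over all genes was 5 and no stress response gene was called. The medians cannot change in that setting, since each block holds 1 array of each group. Deviations of same-numbered arrays correlated at 0.42, -0.03 and 0.17 across genes, beside -0.43 to 0.33 for arrays of different number. The numbers are not treated as pairs. Whether the arrays numbered 1, with the highest of these correlations, share a source of variation was not tested. Low signal limits DDIT3, ATF3, CHAC1, SLC7A11, PDIA3, DNAJB9, CRELD2, ERN1 and TRIB3. It also limits PHGDH and PPP1R15A, which exceeded the negative control percentile in 1 and 2 arrays.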
